A study of Mus musculus with 36 samples.

Results

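The centromere is the part of a chromosome on which the kinetochore is built, and the kinetochore is the protein assembly that the spindle holds on to in mitosis. A set of 41 mouse genes of this machinery was followed here, chosen by name from 7 roles: CENP-A and its loading (4 genes), the inner kinetochore (12), the outer kinetochore (10), the SKA complex (3), the corona and its motors (2), the chromosomal passenger complex with the shugoshins (5) and the spindle checkpoint (5). All 41 of the 41 genes were on the array and passed the filter on low signal, through 64 of 64 probes, among 32492 gene names tested in all. To pass, a gene needed a probe whose signal stood well above background on 3 or more of the 4 arrays in 1 group or more. The probes used for these genes were well above background on all 36 arrays, except that of Hjurp (34 arrays) and that of Ska3 (35 arrays).

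The cells were Bhas 42, a BALB/c 3T3 fibroblast line of the mouse that carries the viral Ha-ras oncogene in every group, controls included, and is used to test chemicals for cell transformation. Treatment began on day 4 of culture and lasted 48 h, to day 6. The 9 groups of 4 arrays each were 1, 2 and 5 µg/cm² of NM-203, a synthetic amorphous silica, then 5 µg/cm² of diatomaceous earth (DE), water (2%) as control of these 4, 20 µg/cm² of Min-U-Sil 5, which is a crystalline silica, a water group (2%) of its own, the phorbol ester and tumour promoter TPA at 0.05 µg/ml, and DMSO (0.1%) as its solvent control. Bhas 42 is 1 line, and the record speaks of independent experiments without tying an array to one of them, so p-values measure the spread between these samples, which may be technical. RNA was measured on whole cultures, so more cells in division and more of an mRNA per cell cannot be told apart.

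In cells generally, the histone variant CENP-A marks the centromere and is put there by the chaperone HJURP with the help of the Mis18 proteins. On it sits the constitutive centromere-associated network (CCAN), which carries the KNL1, MIS12 and NDC80 complexes that bind microtubules. Aurora B with its partners INCENP, survivin and borealin corrects wrong attachments, shugoshins guard the cohesin of sister centromeres, and the kinases BUB1 and TTK with BUBR1, BUB3 and MAD2 hold back anaphase until every kinetochore is attached. Most of these genes are known to be transcribed mainly in late S phase, G2 and mitosis, through promoters that often carry CCAAT boxes and cell cycle genes homology regions (CHR).

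Promoter sequences of 37 of the 41 genes were available, taken from RefSeq on the assembly GRCm38.p6, and 8 of them are printed because they set genes with large changes in these cells beside genes with small ones. Each is the 150 bases before the transcription start, 5′ to 3′ on the gene's strand, and the capitals mark CCAAT or its reverse complement ATTGG, and TTTGAA or its reverse complement TTCAAA. Cenpa, Bub1, Cdca8 and Ttk changed strongly and have CCAAT letters, Ndc80 and Sgo1 changed strongly and have none in this window, and Mis12 and Bub3 changed little.
Cenpa, chr5:30666736-30666885, plus strand: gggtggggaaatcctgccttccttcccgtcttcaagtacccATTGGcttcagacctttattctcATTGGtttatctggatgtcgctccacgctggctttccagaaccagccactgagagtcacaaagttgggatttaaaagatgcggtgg
Bub1, chr2:127831860-127832009, minus strand: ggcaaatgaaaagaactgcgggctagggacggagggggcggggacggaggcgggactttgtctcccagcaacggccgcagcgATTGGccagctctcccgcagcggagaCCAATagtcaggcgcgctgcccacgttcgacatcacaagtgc
Cdca8, chr4:124936918-124937067, minus strand: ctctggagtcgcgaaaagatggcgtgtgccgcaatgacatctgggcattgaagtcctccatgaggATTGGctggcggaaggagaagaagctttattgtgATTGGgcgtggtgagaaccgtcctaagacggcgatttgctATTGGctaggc
Ttk, chr9:83834539-83834688, plus strand: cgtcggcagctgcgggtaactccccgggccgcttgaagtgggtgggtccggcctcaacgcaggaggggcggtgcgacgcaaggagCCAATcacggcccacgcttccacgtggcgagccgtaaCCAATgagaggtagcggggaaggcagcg
Ndc80, chr17:71526858-71527007, minus strand: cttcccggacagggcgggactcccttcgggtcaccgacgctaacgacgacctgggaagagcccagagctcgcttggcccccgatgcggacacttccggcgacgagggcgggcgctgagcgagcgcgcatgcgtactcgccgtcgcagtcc
Sgo1, chr17:53689316-53689465, minus strand: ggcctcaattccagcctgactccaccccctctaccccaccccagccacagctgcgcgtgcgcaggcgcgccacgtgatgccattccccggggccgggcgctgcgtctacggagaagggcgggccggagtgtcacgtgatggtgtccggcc
Mis12, chr11:71019461-71019610, plus strand: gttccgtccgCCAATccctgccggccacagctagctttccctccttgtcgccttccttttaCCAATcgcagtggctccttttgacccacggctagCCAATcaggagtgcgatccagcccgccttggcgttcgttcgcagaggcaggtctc
Bub3, chr7:131560220-131560369, plus strand: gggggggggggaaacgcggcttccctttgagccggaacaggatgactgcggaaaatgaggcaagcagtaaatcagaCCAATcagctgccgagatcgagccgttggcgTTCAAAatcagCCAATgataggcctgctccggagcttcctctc

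Over the 250 bases before the start, CCAAT was found on either strand in 22 of the 37 promoters (59.5%), against 37.5% of 27025 genes in the table. A gene with several starts was counted if any of them had the letters. A mean of at least 2 CCAAT motifs over the starts of a gene was found for 12 of the 37 (32.4%), against 9.67% of all genes. Cdca8 holds 3 in the stretch printed above, and Mis12 holds 3 there and 4 in the longer window. The CHR letters TTCGAA were in 8.11% against 1.55%, carried by Cenpm, Bub1b and Mis18a, and TTTGAA in 16.2% against 18.3%. The E2F letters TTGGCGC or TTCCCGC, which can overlap a CCAAT box as in Ska2, were in 13.5% against 6.45%. At 5 µg/cm² of NM-203 the 22 genes with CCAAT had a median log2 change of 1.83 (0.39 to 2.50), and the 15 of the 37 without had 2.16 (0.72 to 2.61). The medians with and without it were 1.38 and 1.67 for Min-U-Sil 5 and 1.76 and 1.72 for TPA. The 5 genes with the E2F letters had lower medians than the 32 without, 1.33 and 1.99 for NM-203, 0.92 and 1.55 for Min-U-Sil 5 and 1.39 and 1.82 for TPA, with ranges that overlapped. For the 6 genes with TTTGAA and the 31 without they were 1.88 and 1.93, 1.47 and 1.54, and 1.40 and 1.83 in the same order. For the 3 genes with TTCGAA and the 34 without they were 1.71 and 1.99, 1.17 and 1.51, and 2.09 and 1.72. These are counts of letters, with no test.

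Intensities below are given relative to the 75th percentile of the same array, called scaled intensity, so 1 means as bright as that percentile. The scale orders arrays for 1 gene, and levels of different genes cannot be set against each other on it. Changes are log2 differences of group means with the standard error of the fit (n = 4 per group), and a gene is called higher or lower where the limma p, adjusted by Benjamini-Hochberg over all 32492 gene names, is under 0.05. The 4 comparisons with NM-203 and DE share the same 4 water arrays.

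All or nearly all of the set was higher in 4 of the 6 comparisons of a treatment with its control. All 41 genes were called higher at 5 µg/cm² of NM-203 and all 41 after TPA, 39 after Min-U-Sil 5 and 37 at 2 µg/cm² of NM-203, while 3 were called after DE and 0 at 1 µg/cm² of NM-203. No gene of the set was called lower in any of these 6 comparisons, while of all gene names 19.1% were at 5 µg/cm² of NM-203, 6.78% with TPA, 13.9% with Min-U-Sil 5, 8.85% at 2 µg/cm², 0.449% with DE and 0.0431% at 1 µg/cm². The share of all gene names called higher was 14.0% at 5 µg/cm² of NM-203, 4.89% for TPA, 11.6% for Min-U-Sil 5, 16.2% at 2 µg/cm² of NM-203, 0.557% for DE and 0.0431% at 1 µg/cm². In the same order the median log2 change of the 41 genes was 1.99, 1.80, 1.54, 1.50, 0.52 and 0.63, or 3.97-fold, 3.49-fold, 2.91-fold, 2.84-fold, 1.43-fold and 1.54-fold. The median over all gene names lay between -0.04 and 0.11 in these 6 comparisons.

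To show how the arrays of a group spread, the log2 intensity of each gene was first taken relative to its own mean over all arrays. The values are therefore not levels against the 75th percentile of the array. The median of the set was then read on each array. It ran from 0.78 to 1.21 on the log2 scale at 5 µg/cm² of NM-203, from 0.03 to 1.03 at 2 µg/cm², from -0.51 to 0.11 at 1 µg/cm² and from -0.73 to -0.06 for DE, against -1.21 to -0.61 in water. The arrays of NM-203 at 2 and 5 µg/cm² were thus all above water, and those of NM-203 at 1 µg/cm² were too, while DE overlapped water. Min-U-Sil 5 lay between 0.86 and 1.12, against -0.78 to -0.37 in its water group. TPA lay between 0.36 and 0.90, against -1.27 to -0.87 in DMSO.

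Genes of the set moved together from array to array within a group as well. At 2 µg/cm² of NM-203, replicate 1 was the highest array for 37 of the 41 genes and replicate 4 the lowest for 31. At 1 µg/cm² replicate 1 was the highest for 37 genes, among DE arrays replicate 1 for 34, and among water arrays replicate 1 for 33 and replicate 3 the lowest for 28. The 41 genes are therefore not 41 separate readings of a treatment.

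The arrays were run on 5 slides scanned on 2 days, as the file headers give them. All arrays of 2 µg/cm² of NM-203, of Min-U-Sil 5 and of the water group of Min-U-Sil 5 belonged to the second scan day. Those of the other water group, DE, TPA and DMSO belonged to the first. NM-203 at 1 and 5 µg/cm² was mixed: replicate 4 of 1 µg/cm² and replicate 1 of 5 µg/cm² belonged to the second day, and their other arrays to the first. Within slides the set stayed higher: its median log2 change was 2.23 on slide 1 and 1.93 on slide 3 at 5 µg/cm² of NM-203, 1.68 on slide 4 and 1.49 on slide 5 for Min-U-Sil 5, and 1.53 on slide 1 for TPA, the 1 slide that held both TPA and DMSO. On these slides 37, 34, 36, 30 and 19 of the 41 genes were called, with 1 to 3 arrays a group and the spread pooled over all groups and slides. Of all gene names 7.70%, 7.32%, 9.28%, 4.80% and 0.865% were called higher in these fits. For 2 µg/cm² of NM-203 no slide held water, and scan day and treatment cannot be told apart in that comparison except through other groups.

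At 5 µg/cm² of NM-203, all 41 genes rose and all 41 had their 4 arrays above the 4 water arrays, as 15.9% of all gene names did. The largest changes were those of Sgo1, Ska1, Nsl1, Cenpi and Bub1, between 5.66-fold and 6.12-fold. The smallest were those of Zwint by its brightest probe, Mis12, Bub3, Ska2 and Cenpt, between 1.31-fold and 1.64-fold. By role, the median log2 change was 2.39 for the SKA complex, 2.22 for the passenger complex and shugoshins, 2.01 for the checkpoint, 1.99 for the outer kinetochore, 1.92 for the corona, 1.77 for the inner kinetochore and 1.63 for CENP-A and its loading. The median of the SKA complex is the value of Ska3 by its brightest probe. The other probe of Ska3 gave 1.29, below all of these medians.

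**Figure D1:**
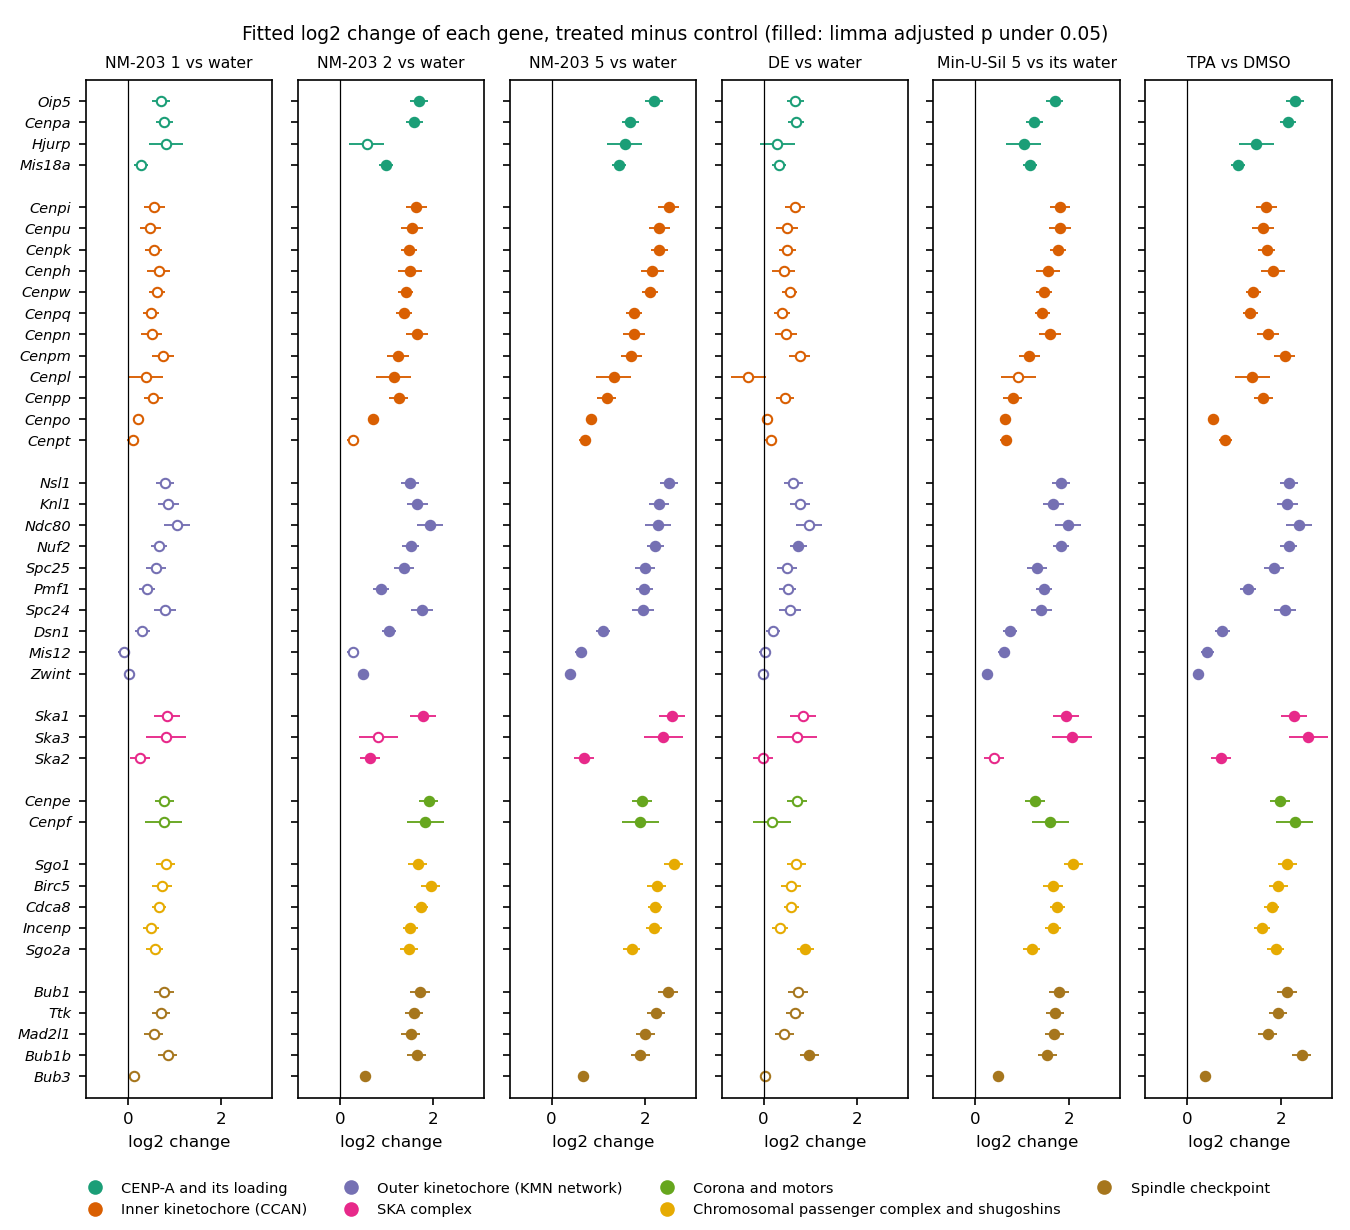
Fitted log2 change (x axis) of each of the 41 genes, grouped by role (colour), in the 6 comparisons of a treatment with its control; bars are 1 standard error and filled points have a limma adjusted p under 0.05. All points are filled for NM-203 at 5 µg/cm² and for TPA, and 3 are filled for DE (Nuf2, Sgo2a and Bub1b).

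Among the genes that place CENP-A, Cenpa itself, the centromeric histone, had scaled intensities of 5.45, 4.70, 6.26 and 6.29 at 5 µg/cm² of NM-203, against 2.22, 1.87, 1.48 and 1.54 in water. The treated arrays were all more than 2-fold above the brightest water array, and the rise was 3.22-fold (log2 change 1.69 ± 0.18, limma adjusted p = 6.34e-09). Hjurp, the chaperone that brings CENP-A to centromeres, was a dim probe with 0.0794, 0.0747, 0.136 and 0.129 at 5 µg/cm², against 0.0277, 0.0250, 0.0609 and 0.0322 in water. Replicate 3 was the brightest array of both groups for this gene, and the groups did not overlap (log2 change 1.57 ± 0.37, limma adjusted p = 0.00111). The 2 Mis18 proteins that act with it are encoded by Oip5 (4.56-fold, log2 change 2.19 ± 0.19, limma adjusted p = 1.31e-10) and Mis18a (2.70-fold, log2 change 1.44 ± 0.15, limma adjusted p = 5.75e-09), and both genes rose.

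All 12 genes of the inner kinetochore network rose, from Cenpt at 1.64-fold to Cenpi at 5.68-fold. Cenpi, of the CENP-H, I and K group, had 1.64, 1.98, 1.73 and 1.32 at 5 µg/cm² of NM-203, against 0.372, 0.324, 0.211 and 0.281 in water, so the dimmest treated array was more than 3-fold above the brightest control (log2 change 2.51 ± 0.22, limma adjusted p = 2.31e-10). Its partners Cenph and Cenpk rose 4.47-fold and 4.95-fold, and Cenpu, of the CENP-O, P, Q, U group, 4.96-fold. Within that last group the changes were unequal: log2 changes were 2.31 for Cenpu, 1.77 for Cenpq, 1.18 for Cenpp and 0.84 for Cenpo. The histone-fold partners Cenpt and Cenpw also had unequal changes, at 0.72 ± 0.13 and 2.10 ± 0.17. Cenpn, which reads CENP-A nucleosomes, Cenpl, its partner, and Cenpm rose 3.40-fold, 2.52-fold and 3.27-fold.

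All 4 subunits of the microtubule-binding NDC80 complex rose about alike in the outer kinetochore, with log2 changes of 2.29 for Ndc80, 2.22 for Nuf2, 2.00 for Spc25 and 1.96 for Spc24. Scaled intensities of Ndc80 were 1.44, 1.14, 1.79 and 1.75 at 5 µg/cm² of NM-203, against 0.450, 0.255, 0.228 and 0.342 in water, with replicate 2 the lowest treated array and no overlap (log2 change 2.29 ± 0.28, limma adjusted p = 7.92e-08). Knl1, the scaffold to which the BUB proteins bind, had 2.01, 1.85, 2.74 and 2.66, against 0.577, 0.527, 0.375 and 0.403 in water. Its treated arrays were all more than 3-fold above the brightest water array (log2 change 2.30 ± 0.22, limma adjusted p = 9e-10).

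The 4 subunits of the MIS12 complex, which joins the inner to the outer layer, had unequal fitted rises. The larger were those of Nsl1 (5.72-fold, log2 change 2.52 ± 0.19, limma adjusted p = 1.6e-11) and Pmf1 (3.97-fold, log2 change 1.99 ± 0.18, limma adjusted p = 2.17e-10). Dsn1 had 2.10, 2.15, 2.16 and 1.98 at 5 µg/cm² of NM-203, against 0.957, 1.04, 0.859 and 1.08 in water, a rise of 2.14-fold with tight groups (log2 change 1.10 ± 0.15, limma adjusted p = 9.88e-07). Mis12 had 0.627, 0.648, 0.641 and 0.597, against 0.374, 0.368, 0.426 and 0.462 in water. Its treated arrays were all above the water arrays, but by less (1.55-fold, log2 change 0.63 ± 0.13, limma adjusted p = 0.000342). Zwint, which links KNL1 to the ZW10 proteins of the corona, had the smallest change of the set by its brightest probe (log2 change 0.39 ± 0.07, limma adjusted p = 7.23e-05), and its other 2 probes gave larger ones, as described with the probes.

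The SKA complex, which helps kinetochores follow shortening microtubules, was split in the same way. Ska1 had 1.70, 1.61, 1.94 and 2.17 at 5 µg/cm² of NM-203, against 0.419, 0.304, 0.249 and 0.290 in water, which put its lowest treated array more than 3-fold above the highest water array (log2 change 2.57 ± 0.28, limma adjusted p = 9.65e-09). Ska3 rose 5.25-fold (log2 change 2.39 ± 0.42, limma adjusted p = 3.09e-05). Ska2 rose 1.61-fold (log2 change 0.69 ± 0.21, limma adjusted p = 0.0119), with treated arrays at 0.347, 0.353, 0.323 and 0.275 and water arrays at 0.199, 0.168, 0.204 and 0.235. Of the corona genes, the motor Cenpe had 6.69, 4.82, 6.59 and 7.67, against 2.27, 1.93, 1.27 and 1.39 in water, and the large coiled-coil protein gene Cenpf had 3.40, 2.31, 3.29 and 4.14, against 1.27, 0.840, 0.703 and 0.738 in water. Neither overlapped its control, and the changes were alike in size (3.81-fold, log2 change 1.93 ± 0.21, limma adjusted p = 1.17e-08, and 3.73-fold, log2 change 1.90 ± 0.40, limma adjusted p = 0.000284).

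In the passenger complex, Birc5, which encodes survivin, had 39.5, 35.7, 38.8 and 32.9 at 5 µg/cm² of NM-203, against 10.0001, 7.97, 5.98 and 7.38 in water (4.76-fold, log2 change 2.25 ± 0.21, limma adjusted p = 5.87e-10). Cdca8, the borealin gene, and Incenp, the scaffold, rose 4.65-fold and 4.55-fold, so the 3 partners of Aurora B lay close together. Sgo1, the protector of centromeric cohesion, had 5.44, 5.74, 6.29 and 4.90, against 1.19, 0.956, 0.684 and 0.883 in water, the largest change of the set. Its dimmest treated array was more than 4-fold above its brightest water array (6.12-fold, log2 change 2.61 ± 0.20, limma adjusted p = 2.22e-11). Sgo2a rose 3.28-fold (log2 change 1.71 ± 0.18, limma adjusted p = 8.51e-09); the reference table also lists the copy Sgo2b, and signal shared between such copies makes its separate value uncertain.

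The checkpoint kinase Bub1 had 1.53, 1.32, 1.76 and 1.66 at 5 µg/cm² of NM-203, against 0.368, 0.296, 0.200 and 0.265 in water, a rise of 5.66-fold without overlap (log2 change 2.50 ± 0.21, limma adjusted p = 1.11e-10). Bub1b, which encodes BUBR1, had 1.77, 1.44, 2.08 and 2.44, against 0.711, 0.481, 0.435 and 0.446 in water, with replicate 1 the highest of the water arrays at 0.711 (log2 change 1.90 ± 0.20, limma adjusted p = 7.65e-09). The checkpoint kinase gene Ttk had 0.872, 0.828, 1.06 and 0.892, against 0.258, 0.201, 0.149 and 0.174 in water (log2 change 2.25 ± 0.19, limma adjusted p = 1.16e-10). The fitted rises of these 3 genes were all above 3-fold. Mad2l1, which encodes MAD2, had 5.75, 5.15, 7.59 and 6.67, against 1.91, 1.50, 1.42 and 1.41 in water (log2 change 2.01 ± 0.21, limma adjusted p = 3.81e-09). Bub3 had 21.5, 18.6, 20.1 and 18.2, against 13.0, 12.4, 12.1 and 11.4 in water. Its arrays did not overlap either, but the rise was 1.60-fold (log2 change 0.68 ± 0.09, limma adjusted p = 3.71e-07), the smallest of the checkpoint genes.

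At 1 µg/cm² of NM-203, 0 of the 41 genes passed the limma threshold, and 31 had an unadjusted limma p under 0.05, as 5.74% of all gene names had. A set of 18 genes had all 4 arrays above all 4 water arrays, as 2.16% of all gene names did, and 40 of the 41 log2 changes were above 0, as were 46.7% of those of all gene names. Ndc80 had the largest value, with 0.850, 0.553, 0.686 and 0.507, against 0.450, 0.255, 0.228 and 0.342 in water (2.07-fold, log2 change 1.05 ± 0.28, limma adjusted p = 0.155). The smallest adjusted p was that of Cenpa, with 4.28, 3.03, 2.51 and 2.54, against 2.22, 1.87, 1.48 and 1.54 in water (log2 change 0.78 ± 0.18, limma adjusted p = 0.0757). Neither gene overlapped its control, yet neither passed. Mis12 was the 1 gene with a value below 0 (log2 change -0.09 ± 0.13). With array weights, which count down arrays that deviate, 18 genes were called higher at this dose (0.597% of all gene names), and with the slide as a block 8 were (0.237%).

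The middle dose brought most of the set past the threshold. At 2 µg/cm² of NM-203, 37 genes rose and 36 had all arrays above water, as 14.7% of all gene names did. The largest changes were those of Birc5, Ndc80 and Cenpe. Birc5 had 41.2, 38.9, 26.8 and 18.2, against 10.0001, 7.97, 5.98 and 7.38 in water (3.86-fold, log2 change 1.95 ± 0.21, limma adjusted p = 1.46e-07). Cenpe had 8.09, 7.51, 5.82 and 4.28, against 2.27, 1.93, 1.27 and 1.39 in water (3.74-fold, log2 change 1.90 ± 0.21, limma adjusted p = 2.03e-07). In Ndc80, replicate 4 stood low beside the other 3 arrays, at 1.78, 1.34, 1.54 and 0.508, against 0.450, 0.255, 0.228 and 0.342 in water (log2 change 1.92 ± 0.28, limma adjusted p = 8.83e-06).

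The 4 genes that did not pass at this dose were Cenpt, Mis12, Ska3 and Hjurp. Ska3 had 0.608, 0.0600, 0.405 and 0.288, against 0.155, 0.141, 0.153 and 0.128 in water, so that replicate 2 lay below every water array and the other 3 above (log2 change 0.83 ± 0.42, limma adjusted p = 0.153). Without replicate 2 its log2 change was 1.52 (limma adjusted p = 0.000551), and that array also had the most outlier spots of all, 380. The median coefficient of variation of spot signals that the scanner software gave for it was 13.8%, against 2.45% to 3.09% on the other arrays of the group. Mis12 had 0.605, 0.589, 0.538 and 0.312, with replicate 4 below the water arrays (log2 change 0.29 ± 0.13, limma adjusted p = 0.119), and Hjurp had 0.0467, 0.0819, 0.0628 and 0.0278 (log2 change 0.58 ± 0.37, limma adjusted p = 0.267). Cenpt overlapped water as well (log2 change 0.29 ± 0.13, limma adjusted p = 0.11) and passed without replicate 2 (log2 change 0.43, limma adjusted p = 0.0129). Against the water group of Min-U-Sil 5, scanned on the same day, 34 genes were higher, as 7.70% of all gene names were, with a median log2 change of 1.08 in place of 1.50. In that comparison 28 genes had no overlap, as 6.42% of all gene names had in that direction, and Hjurp was at -0.05. The genes that passed against water but not against that group were Zwint, Dsn1, Ska2 and Sgo2a. With scan day as a block, 34 genes were higher, as 3.26% of all gene names were, and Cenpl, Pmf1 and Ska2 no longer passed.

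Between doses of NM-203 the fitted values went up in order for 38 of the 41 genes, which moved together from array to array. From 1 to 2 µg/cm² they went up for 40 of the 41 genes, as for 64.0% of all gene names. From 2 to 5 µg/cm² they went up for 39, as for 39.6% of all gene names. Of the change at 5 µg/cm², a median of 30.5% was reached at 1 µg/cm² and 73.1% at 2 µg/cm², on the log2 scale. Set directly against 1 µg/cm², the 2 µg/cm² group had 32 genes higher, as 11.0% of all gene names were, and the 5 µg/cm² group had 22 genes higher than the 2 µg/cm² group, as 11.7% were. No overlap was seen for 15 genes between 2 and 1 µg/cm² (11.1% of all gene names in that direction), and between 5 and 2 µg/cm² for 9 genes upwards (8.63%) and 1 downwards (17.2%). These counts depend on scale and batch: with arrays scaled on the median gene they were 13 and 17 (2.03% and 12.4% of all gene names), with scan day as a block 17 and 7 (1.51% and 7.68%), and without replicate 4 of 2 µg/cm² the second was 11. On slide 5, the 1 slide that held arrays of all 3 doses, they were 0 and 2 (0.00923% and 5.96%).

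The fitted steps between the upper doses were of unequal size, and whether they differ between genes was not tested. Cenpa reached 1.60 at 2 µg/cm² and 1.69 at 5 µg/cm², Cenpe 1.90 and 1.93, Cenpf 1.83 and 1.90, and Dsn1 1.05 and 1.10. None of these 4 steps passed the threshold (limma adjusted p from 0.753 to 0.944). The value of Cenpf rests on its brightest probe, and its other probe gave 0.10 at 2 µg/cm² and 1.74 at 5 µg/cm². Pmf1, a subunit of the MIS12 complex, had 1.44, 1.38, 1.19 and 1.16 in water, 1.87, 1.80, 1.47 and 1.74 at 1 µg/cm², 3.11, 1.88, 2.04 and 2.70 at 2 µg/cm² and 5.58, 5.50, 5.33 and 4.21 at 5 µg/cm². Its change between the upper doses was 2.15-fold (log2 change 1.11 ± 0.18, limma adjusted p = 1.02e-05), with no overlap. Nsl1 (2.02-fold, log2 change 1.01 ± 0.19, limma adjusted p = 0.00012) and Sgo1 (1.92-fold, log2 change 0.94 ± 0.20, limma adjusted p = 0.000541) also rose between 2 and 5 µg/cm² without overlap. Ska3 had the largest fitted step, 1.56 ± 0.42 (limma adjusted p = 0.0043), which includes the low replicate 2. Zwint was lower on every array of 5 µg/cm² than on every array of 2 µg/cm² and did not pass (log2 change -0.10 ± 0.07, limma adjusted p = 0.325).

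**Figure D2:**
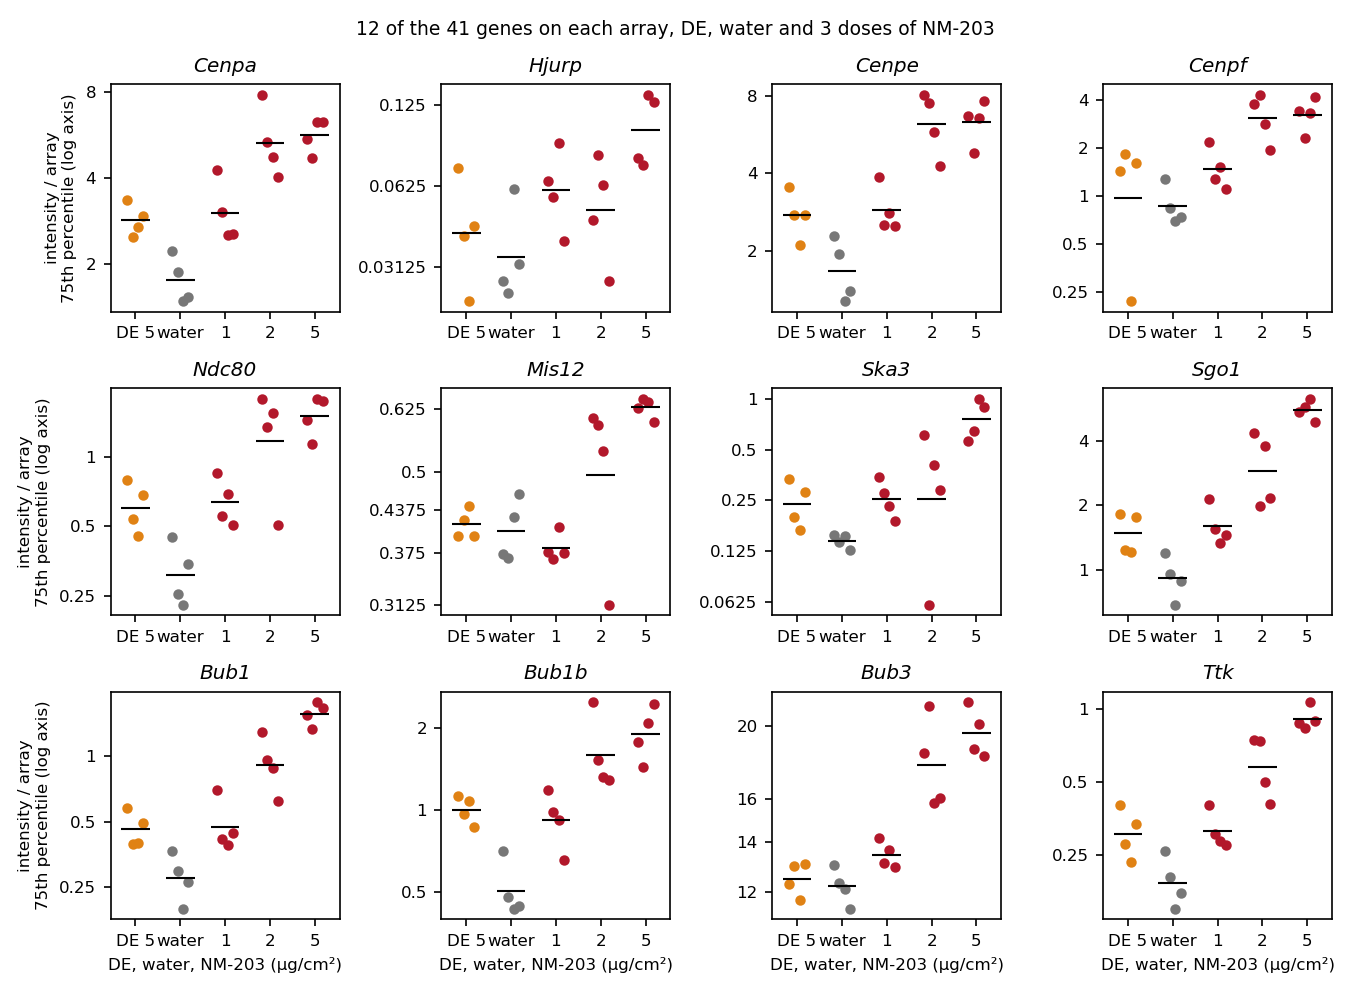
Scaled intensity (log2 axis, differing between panels) of 12 of the 41 genes on each array of DE, water and NM-203 at 1, 2 and 5 µg/cm²; lines are geometric means. Cenpa and Cenpe have log2 steps of 0.09 and 0.03 between 2 and 5 µg/cm², Sgo1 has 0.94, Cenpf has 1 low DE array at 0.220, and Ska3 has 1 low array at 2 µg/cm² at 0.0600.

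DE at 5 µg/cm² had the smallest median change of the set, 1.43-fold. It had 3 genes higher than water: Nuf2, Sgo2a and Bub1b. Bub1b had 1.12, 0.964, 1.08 and 0.867, against 0.711, 0.481, 0.435 and 0.446 in water (1.98-fold, log2 change 0.98 ± 0.20, limma adjusted p = 0.012). The groups did not overlap, as was so for Sgo2a, with 0.285, 0.188, 0.230 and 0.201, against 0.116, 0.131, 0.118 and 0.116 in water (1.86-fold, log2 change 0.90 ± 0.18, limma adjusted p = 0.0112), and for Nuf2, with 1.35, 1.02, 1.02 and 1.07, against 0.8289, 0.673, 0.587 and 0.580 in water (1.68-fold, log2 change 0.75 ± 0.18, limma adjusted p = 0.0303). All 3 calls were lost without water replicate 3 or 4 or without DE replicate 1, and 10 genes were called without water replicate 1 (0.736% of all gene names). With array weights 14 genes were called (0.914%) and with the slide as a block 13 (0.877%).

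Of the 41 genes 15 had all DE arrays above all water arrays, as 2.59% of all gene names did, and 29 had an unadjusted limma p under 0.05, as 10.5% of all gene names had. Ndc80 (log2 change 0.97 ± 0.28, limma adjusted p = 0.0952), Cenpa (log2 change 0.70 ± 0.18, limma adjusted p = 0.0504), Cdca8 (log2 change 0.59 ± 0.16, limma adjusted p = 0.064) and Bub1 (log2 change 0.74 ± 0.21, limma adjusted p = 0.097) did not overlap water and did not pass. Values at or near 0 were those of Zwint (-0.02), Ska2 (-0.01), Mis12 (0.03), Bub3 (0.03) and Cenpo (0.07). In Cenpf and Cenpl 1 array set the value: Cenpf had 1.43, 1.82, 0.220 and 1.60 in DE and Cenpl 0.382, 0.348, 0.0524 and 0.399, with replicate 3 far below the rest for both. Without it their log2 changes were 0.90 (limma adjusted p = 0.111) and 0.39 (limma adjusted p = 0.699), in place of 0.18 and -0.32.

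At the same dose of 5 µg/cm², NM-203 and DE could be set against each other. All 41 genes were higher with NM-203 than with DE, as 14.0% of all gene names were, and all 41 had no overlap between the groups, as 13.8% of all gene names had in that direction. The median log2 difference was 1.48, or 2.78-fold. Sgo1 had 5.44, 5.74, 6.29 and 4.90 with NM-203, against 1.81, 1.24, 1.22 and 1.76 with DE, the largest difference of the set (3.76-fold, log2 change 1.91 ± 0.20, limma adjusted p = 1.22e-08). The smallest were those of Zwint (0.42 ± 0.07, limma adjusted p = 4.26e-05) and Cenpt (0.57 ± 0.13, limma adjusted p = 0.00103). Within slides 1 and 3, 22 and 28 genes were called, as 5.73% and 9.65% of all gene names were, with 1 or 2 arrays a group.

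Min-U-Sil 5 raised 39 of the 41 genes over its own water group, and 40 had no overlap, as 11.8% of all gene names had in that direction. Sgo1, Ska3 and Ndc80 changed most, Ska3 by its brightest probe. Sgo1 had 6.20, 5.67, 5.71 and 6.22 with Min-U-Sil 5, against 1.41, 1.32, 1.21 and 1.68 in its water group (4.27-fold, log2 change 2.09 ± 0.20, limma adjusted p = 4.3e-09). Ska3 had 0.675, 0.608, 0.727 and 0.713, against 0.102, 0.197, 0.176 and 0.195 (4.19-fold, log2 change 2.07 ± 0.42, limma adjusted p = 0.000328). In Ndc80 the arrays were at 1.92, 1.61, 2.36 and 1.76, against 0.394, 0.510, 0.390 and 0.671 in its water group (3.95-fold, log2 change 1.98 ± 0.28, limma adjusted p = 1.95e-06). In all 3 the dimmest treated array was more than 2-fold above the brightest control.

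The centromeric histone gene Cenpa had 4.89, 5.34, 6.12 and 4.70 with Min-U-Sil 5, against 2.27, 2.20, 1.76 and 2.56 in its water group (2.40-fold, log2 change 1.26 ± 0.18, limma adjusted p = 2.1e-06). Cenpe had 8.61, 8.51, 8.21 and 7.45, against 4.20, 2.94, 3.01 and 3.57 (2.41-fold, log2 change 1.27 ± 0.21, limma adjusted p = 2.48e-05). Both were clear of their controls. Among the checkpoint genes Bub1 rose 3.46-fold (log2 change 1.79 ± 0.21, limma adjusted p = 1.4e-07), Ttk 3.24-fold (log2 change 1.70 ± 0.19, limma adjusted p = 5.69e-08), Mad2l1 3.23-fold (log2 change 1.69 ± 0.21, limma adjusted p = 2.14e-07) and Bub1b 2.91-fold (log2 change 1.54 ± 0.20, limma adjusted p = 7.46e-07), and Bub3 only 1.40-fold (log2 change 0.49 ± 0.09, limma adjusted p = 0.000106). The rises of Knl1 (3.19-fold, log2 change 1.67 ± 0.22, limma adjusted p = 6.58e-07), Ska1 (3.82-fold, log2 change 1.93 ± 0.28, limma adjusted p = 2.95e-06), Birc5 (3.18-fold, log2 change 1.67 ± 0.21, limma adjusted p = 3.33e-07) and Cenpf (3.03-fold, log2 change 1.60 ± 0.40, limma adjusted p = 0.0026) were of like size.

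Small rises with Min-U-Sil 5 were those of Dsn1 (1.67-fold, log2 change 0.74 ± 0.15, limma adjusted p = 0.000436), Mis12 (1.52-fold, log2 change 0.61 ± 0.13, limma adjusted p = 0.000791) and, by its brightest probe, Zwint (1.19-fold, log2 change 0.26 ± 0.07, limma adjusted p = 0.00887). The other probes of Zwint gave log2 changes of 0.80 and 1.42. The call of Zwint was lost with normexp (limma adjusted p = 0.168), with arrays scaled on the median gene (limma adjusted p = 0.297), with only the arrays compared (limma adjusted p = 0.0826) and within slides 4 and 5. Ska2 did not pass and overlapped its control, with 0.257, 0.291, 0.385 and 0.286, against 0.193, 0.255, 0.214 and 0.264 (log2 change 0.39 ± 0.21, limma adjusted p = 0.214). Cenpl did not pass although its arrays were at 0.498, 0.560, 0.693 and 0.484, against 0.333, 0.292, 0.230 and 0.327, without overlap (log2 change 0.92 ± 0.37, limma adjusted p = 0.0713); its spread in the fit includes the low DE array. Hjurp passed (log2 change 1.04 ± 0.37, limma adjusted p = 0.0386) and lost the call without any 1 of 5 arrays, replicates 1, 2 and 4 of Min-U-Sil 5 and replicates 1 and 4 of its water group.

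TPA raised all 41 genes over DMSO, and none overlapped, while 7.99% of all gene names lay apart in that direction. Ska3, by its brightest probe, Bub1b and Ndc80 changed most. Ska3 had 0.580, 0.456, 0.747 and 0.777 with TPA, against 0.0949, 0.0685, 0.195 and 0.0912 in DMSO (6.04-fold, log2 change 2.59 ± 0.42, limma adjusted p = 5.34e-05). Bub1b had 2.53, 1.88, 2.24 and 2.77, against 0.373, 0.424, 0.477 and 0.435 in DMSO (5.47-fold, log2 change 2.45 ± 0.20, limma adjusted p = 6.49e-10). In Ndc80 the TPA arrays were at 1.28, 1.38, 1.67 and 1.54, against 0.260, 0.274, 0.345 and 0.249 in DMSO (5.23-fold, log2 change 2.39 ± 0.28, limma adjusted p = 2.77e-07). Bub1b and Ndc80 were more than 3-fold above the brightest DMSO array on every TPA array, and Ska3 more than 2-fold.

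Cenpa had 7.53, 6.56, 7.26 and 8.46 with TPA, against 1.42, 1.73, 1.87 and 1.67 in DMSO (4.46-fold, log2 change 2.16 ± 0.18, limma adjusted p = 6.27e-10), and Oip5, of its loading complex, rose 4.96-fold (log2 change 2.31 ± 0.19, limma adjusted p = 5.21e-10). Cenpf had 3.71, 2.69, 3.67 and 4.28, against 0.633, 0.608, 0.866 and 0.799 in DMSO (4.92-fold, log2 change 2.30 ± 0.40, limma adjusted p = 0.000126). In Cenpa and Cenpf all TPA arrays lay above all DMSO arrays, and the standard error was larger for Cenpf. Knl1 rose 4.42-fold (log2 change 2.15 ± 0.22, limma adjusted p = 3.08e-08), Ska1 4.89-fold (log2 change 2.29 ± 0.28, limma adjusted p = 5.75e-07), Sgo1 4.41-fold (log2 change 2.14 ± 0.20, limma adjusted p = 9.27e-09), Bub1 4.40-fold (log2 change 2.14 ± 0.21, limma adjusted p = 1.99e-08) and Cenpe 3.95-fold (log2 change 1.98 ± 0.21, limma adjusted p = 6.32e-08). Birc5, Ttk and Mad2l1 rose 3.87-fold, 3.83-fold and 3.29-fold.

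The small responders were again small with TPA. Zwint was at 20.3, 22.8, 23.6 and 21.7 with TPA, against 17.6, 19.8, 18.9 and 18.8 in DMSO (1.18-fold, log2 change 0.24 ± 0.07, limma adjusted p = 0.0323). Bub3 was at 15.5, 15.9, 16.5 and 17.5, against 11.7, 12.9, 12.4 and 13.1 in DMSO (1.31-fold, log2 change 0.39 ± 0.09, limma adjusted p = 0.00363), and Mis12 at 0.488, 0.476, 0.464 and 0.542, against 0.372, 0.393, 0.369 and 0.330 (1.35-fold, log2 change 0.43 ± 0.13, limma adjusted p = 0.0333). All were above every control array by little. Zwint lost its call without any 1 of 6 arrays (log2 changes of 0.20 to 0.25), Mis12 without any 1 of 5, Ska2 (log2 change 0.72 ± 0.21, limma adjusted p = 0.025) without any 1 of 4 and Hjurp (log2 change 1.48 ± 0.37, limma adjusted p = 0.00685) without DMSO replicate 1, while the other 37 genes kept theirs whichever array was left out. With arrays scaled on the median gene Zwint, Mis12, Ska2, Bub3 and Cenpo did not pass (limma adjusted p from 0.103 to 0.398).

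The 3 strong comparisons, NM-203 at 5 µg/cm² with water, Min-U-Sil 5 with its water group and TPA with DMSO, share no array, so their changes can be set against each other gene by gene. Over the 41 genes the log2 changes of NM-203 and Min-U-Sil 5 correlated with Pearson r = 0.97 and Spearman rho = 0.96, those of NM-203 and TPA with 0.84 and 0.65, and those of Min-U-Sil 5 and TPA with 0.83 and 0.70. Genes are not independent replicates, and each gene was read by the same probe in all of them, so these are descriptions. The 8 genes with the smallest change in each comparison had 7 in common: Bub3, Cenpo, Cenpt, Dsn1, Mis12, Ska2 and Zwint. Zwint is among them by its brightest probe. Its other probes gave 0.87 and 1.69 with NM-203, 0.80 and 1.42 with Min-U-Sil 5, and 0.25 and 0.63 with TPA. The 8 with the largest had 3 in common, Nsl1, Ska1 and Ska3, the last by its brightest probe.

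**Figure D3:**
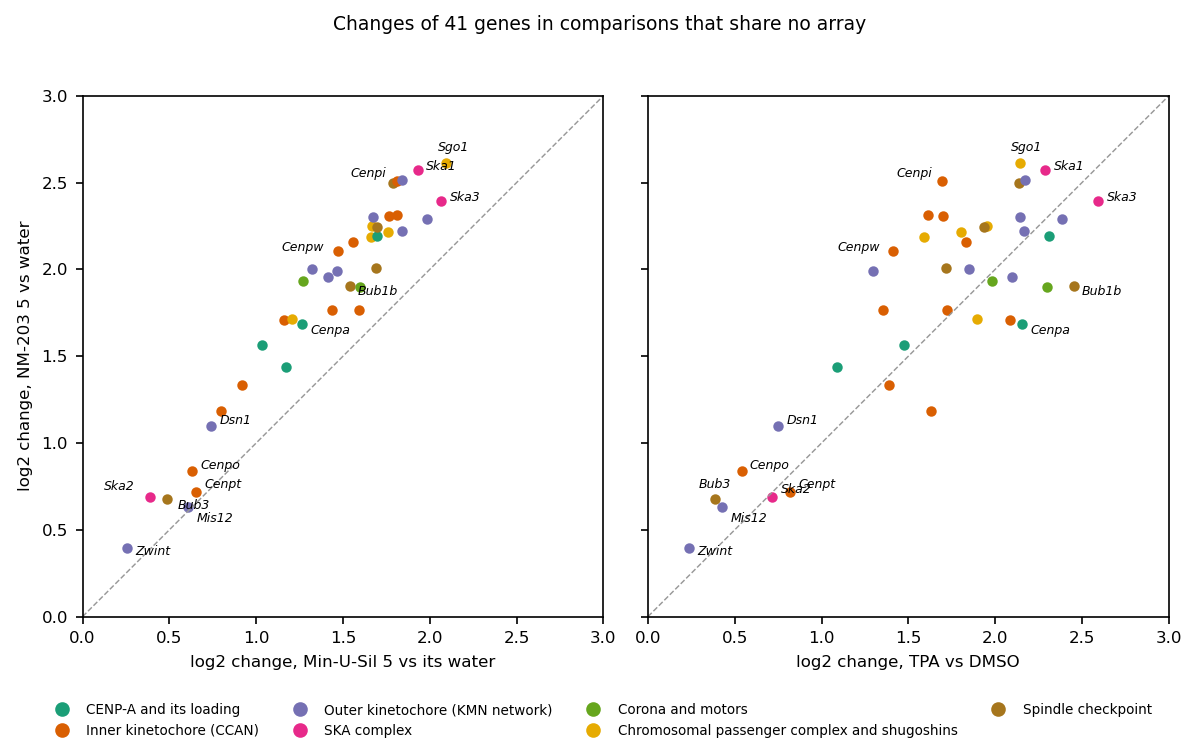
Log2 change at 5 µg/cm² of NM-203 (y axis) against that of Min-U-Sil 5 (left) and of TPA (right), 1 point per gene, coloured by role; the dashed line marks equal change. All 41 points lie above the line on the left, the 7 genes with small changes sit at the lower left of both panels, and Cenpa, Bub1b and Cenpf lie below the line on the right.

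The differences between these effects were tested in the same fit. The effect of NM-203 at 5 µg/cm² was higher than that of Min-U-Sil 5 at 20 µg/cm² for all 41 genes by the fitted value, as for 46.2% of all gene names, with a median difference of 0.50 (log2), but 0 passed the limma threshold (0.0923% of all gene names did in that direction) and 10 had an unadjusted p under 0.05, as 7.63% of all gene names had. The doses differ. Set against TPA, the effect of NM-203 was higher for 27 of the 41 genes by the fitted value. It was called higher for 1 gene, as for 7.73% of all gene names. Cenpw, the histone-fold partner of Cenpt, rose 4.30-fold with NM-203 and 2.66-fold with TPA (difference 0.69 ± 0.24, limma adjusted p = 0.0456). The effect of Min-U-Sil 5 was higher than that of TPA for 12 of the 41 genes by the fitted value. Cenpa was the 1 gene called with a smaller rise with Min-U-Sil 5 than with TPA, as 2.56% of all gene names were (2.40-fold and 4.46-fold, difference -0.89 ± 0.25, limma adjusted p = 0.0295). The Cenpw call was lost in 11 of the fits with 1 array left out. The number of genes called with a smaller effect of Min-U-Sil 5 was 0 to 3 in such fits.

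The controls were set against each other as a measure of the background. DMSO and water had 0 of the 41 genes called by limma in either direction, at an unadjusted limma p under 0.05 also 0, and a median log2 difference of -0.12. Of all gene names 0% were called, and 2.07% had an unadjusted p under 0.05. The water group of Min-U-Sil 5 was higher than the other water group for 8 genes, as 18.8% of all gene names were: Cenpe (log2 change 1.03 ± 0.21, limma adjusted p = 0.00143), Sgo2a (log2 change 0.99 ± 0.18, limma adjusted p = 0.000638), Dsn1 (log2 change 0.68 ± 0.15, limma adjusted p = 0.00316), Zwint (log2 change 0.36 ± 0.07, limma adjusted p = 0.00134), Cenpi (log2 change 0.64 ± 0.22, limma adjusted p = 0.036), Sgo1 (log2 change 0.61 ± 0.20, limma adjusted p = 0.0305), Incenp (log2 change 0.50 ± 0.17, limma adjusted p = 0.0319) and Birc5 (log2 change 0.61 ± 0.21, limma adjusted p = 0.0333). The median of all gene names differed by 0.22 (log2) between these groups, and the set's by 0.36. With arrays scaled on the median gene 1 gene was higher and 1 lower, as 6.83% and 12.7% of all gene names were, and scan day and group cannot be told apart here except through other groups.

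Several probes were kept for 19 of the 41 genes, and the brightest was used. In 16 of the 19 the probes agreed within 0.5 (log2) at 5 µg/cm² of NM-203, in 17 for Min-U-Sil 5 and in 16 for TPA, with median gaps of 0.13, 0.13 and 0.15. All probes of all 19 genes had changes above 0 in these 3 comparisons. Zwint disagreed most with NM-203 and Min-U-Sil 5: its brightest probe gave 0.39 at 5 µg/cm² of NM-203 and the others 0.87 and 1.69. For Ska3 the values were 2.39 and 1.29 with NM-203, 2.07 and 1.04 with Min-U-Sil 5, and 2.59 and 0.99 with TPA. The 2 probes of Cenpf gave 1.83 and 0.10 at 2 µg/cm² of NM-203, though 1.90 and 1.74 at 5 µg/cm², and 2.30 and 3.08 with TPA. The 3 probes of Ttk ran from 1.77 to 2.25 with NM-203 at 5 µg/cm² and from 1.94 to 2.74 with TPA. The call of Cenpf at 2 µg/cm² was lost with the mean of its probes (log2 change 0.97, limma adjusted p = 0.0664).

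**Figure D4:**
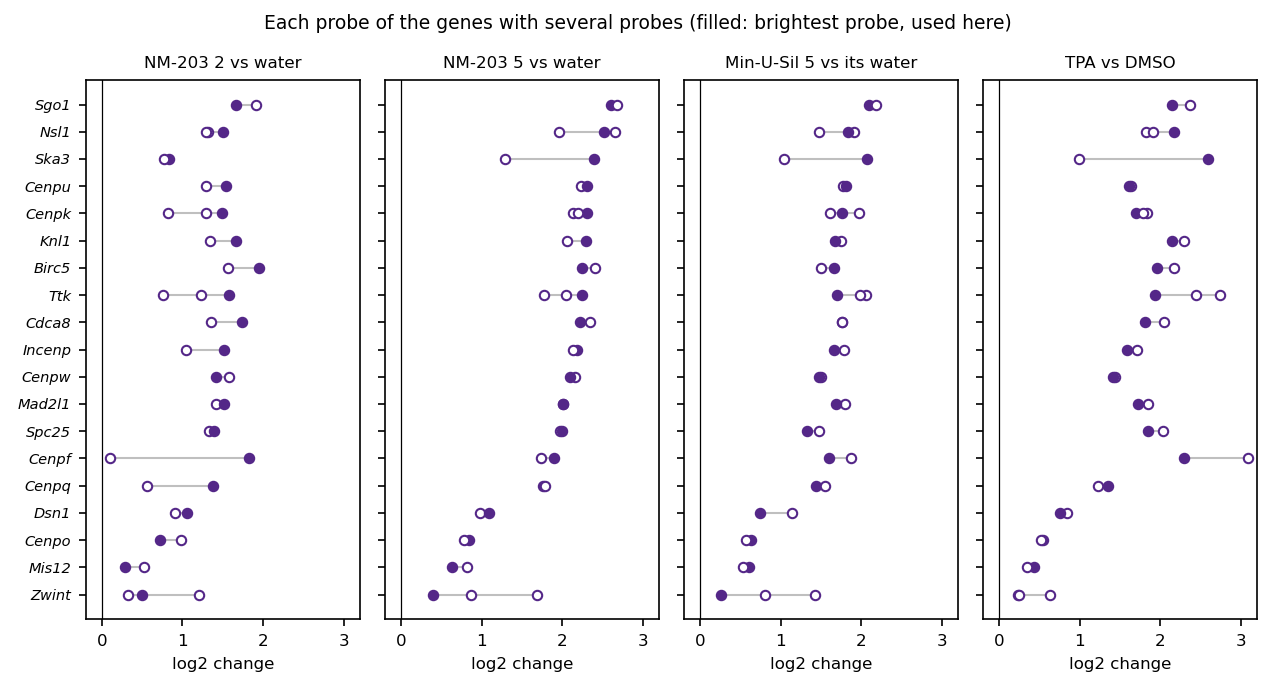
Log2 change given by each kept probe of the 19 genes with several probes, in 4 comparisons; the filled point is the brightest probe, whose value is used in the text. Points of 1 gene mostly lie close together, with wide gaps for Zwint, for Ska3 and, at 2 µg/cm² of NM-203, for Cenpf.

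Other genes of the same machinery were read as lists. Of 22 further kinetochore and checkpoint genes, 16 were called higher and 1 lower at 5 µg/cm² of NM-203, 13 and 0 at 2 µg/cm², 13 and 1 with Min-U-Sil 5, 13 and 0 with TPA, 3 and 0 with DE and 0 and 0 at 1 µg/cm². Of all gene names 14.0%, 16.2%, 11.6%, 4.89%, 0.557% and 0.0431% were called higher in that order. The shares called lower were 19.1%, 8.85%, 13.9%, 6.78%, 0.449% and 0.0431%. The median log2 changes of the 22 genes were 0.98, 0.54, 0.69, 0.65, 0.15 and 0.12 in that order, lower than those of the 41 genes in each. Trip13, which remodels MAD2, rose by a log2 change of 2.61 with NM-203 at 5 µg/cm², 2.04 with Min-U-Sil 5 and 1.56 with TPA, and Aurkb, the kinase of the passenger complex, by 2.40, 1.83 and 2.31. Cenpb, which binds a DNA motif of centromeric repeats, was the gene that fell, by 0.37 with NM-203 at 5 µg/cm² and by 0.37 with Min-U-Sil 5. Itgb3bp and Clasp1 were at 0.00 and -0.08 with NM-203.

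Of 16 genes of cohesin and its regulators 8 were higher at 5 µg/cm² of NM-203, 7 with Min-U-Sil 5 and 6 with TPA, with medians of 0.39, 0.31 and 0.16, and 8 were higher and 1 lower at 2 µg/cm² of NM-203, with a median of 0.29. The regulators of mitosis and S phase in it rose most in these first 3 comparisons: Cdca5, which encodes sororin, by 2.66, 1.87 and 1.85, Espl1, the separase gene, by 2.35, 1.78 and 2.09, and Esco2 by 2.42, 2.16 and 2.15. Core subunits changed less, with Smc3 at 0.49, 0.23 and 0.11 and Stag2 at -0.44, -0.01 and 0.13, of which only Smc3 with NM-203 passed. Of 15 genes of the anaphase-promoting complex 6, 3 and 2 were higher and 1, 1 and 0 lower in the same comparisons, with medians of 0.19, 0.09 and 0.01. At 2 µg/cm² of NM-203 9 of them were higher and 1 lower, with a median of 0.31, the largest for this list among the 6 comparisons with a control. With DE and at 1 µg/cm² of NM-203 no gene of either list passed. Of all gene names 14.0% were called higher at 5 µg/cm² of NM-203, 11.6% with Min-U-Sil 5, 4.89% with TPA and 16.2% at 2 µg/cm² of NM-203. The shares called lower were 19.1%, 13.9%, 6.78% and 8.85% in the same order.

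The label of the cells was checked against marker genes. All 10 fibroblast markers were well above background in every group, on 3 or more of 4 arrays. Of the 6 epithelial markers Krt8 and Cldn4 were well above it in every group and Krt18 with Min-U-Sil 5, and Epcam, Cdh1 and Krt19 were not in any group. Their summed scaled intensity was 0.146 to 0.197 at 5 µg/cm² of NM-203, against 0.263 to 0.289 in water, and at most 0.469 in any group. The fibroblast markers were not level: 7 of 10 were lower at 5 µg/cm² of NM-203 and 7 of 10 with Min-U-Sil 5, 3 at 2 µg/cm², 2 with TPA, and 0 with DE and at 1 µg/cm². Of all gene names 19.1%, 13.9%, 8.85%, 6.78%, 0.449% and 0.0431% were called lower in that order. Log2 changes of Col3a1, a fibrillar collagen gene, were -1.73, -1.39, -0.94, -0.33, -0.30 and -0.30 in that order, of which the first 3 passed. The summed scaled intensity of the fibroblast markers was 557 to 757 at 5 µg/cm² of NM-203, against 855 to 972 in water, 690 to 756 with Min-U-Sil 5, against 861 to 1249 in its water group, and 802 to 893 with TPA, against 927 to 1035 in DMSO. Its part in the changes of the 41 genes was not tested. Of the 5 endothelial markers 1 was well above background at 5 µg/cm² of NM-203, 2 with Min-U-Sil 5, 2 with TPA and 3 in each of the other 6 groups, controls included, and Tek was not in any. Their sums were 0.136 to 0.210 at 5 µg/cm² of NM-203, against 0.227 to 0.308 in water. Of the 7 macrophage markers 5 or 6 were well above background and the leukocyte marker Ptprc was not in any group, with sums of 14.7 to 20.2 at 5 µg/cm² of NM-203, against 18.8 to 27.5 in water.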

How the data were processed

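RNA of 36 Bhas 42 cultures was read on 1-colour Agilent mouse arrays, 4 per group. The authors deposited scanner files of Agilent Feature Extraction 11.0.1.1, per the submitters' processing notes, and these hold a background-subtracted intensity per spot, per the file headers. The deposited files also carry other columns, the per-spot marks for outliers, saturation and signal well above background. A deposited value table in log2 units was used as an alternative. Its columns matched their own array best for 33 of 36, and the rest matched another replicate of Min-U-Sil 5.

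Control spots and outlier spots were left out, spots of a probe averaged, and log2 intensities set relative to the 75th percentile of each array, which was 531 to 1542. No spot was saturated and 55.1% to 76.2% of the probes were well above background. Of 56605 probes, 32994 were named through RefSeq accessions (22911 symbols), and 40679 well above background on 3 of 4 arrays of a group were kept. The brightest probe stood for a gene, which gave 32492 names, 17872 of them symbols. All 9 group means were fitted together in limma 3.58.1 (R 4.3.3, lmFit and eBayes, 27 residual degrees of freedom) and p-values were adjusted by Benjamini-Hochberg over all names. The code was tested on simulated data. The number of arrays limits the precision, and replicates correlated with r of 0.953 to 0.993.

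The 41 genes and all other lists were chosen with earlier results of these data known. Values are given for 16 genes chosen as anchors of the 7 roles, and for the 3 genes with the largest called change in each comparison; genes that did not pass are named with their values, and the others singled out were chosen after their values were seen. Alternatives were other background correction and scaling, the deposited table, other filters, the mean of probes, slide, scan day or replicate number as a block, array weights, only the arrays compared, single slides, and leaving out each array.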

Additional observations from a re-analysis of the deposited data

Results flagged for a closer look

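Single arrays that stood apart from the other 3 of their group by Dixon's test numbered 19 in 378 tests, or 5.03%, made for each of the 41 genes and for the set's median in each of the 9 groups, and chance gives about 1 in 20. Scaled intensities are given, each with the nearest of the other 3 arrays. With DE, Cenpf was low in replicate 3 at 0.220 (nearest 1.43), Cenpl was low in replicate 3 at 0.0524 (nearest 0.348), Cenpm was high in replicate 1 at 0.565 (nearest 0.394), and Nuf2 was high in replicate 1 at 1.35 (nearest 1.07). Both low values in replicate 3 bear on the DE comparison, as given there.

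With NM-203, Incenp was high in replicate 1 of 1 µg/cm² at 5.95 (nearest 4.43), and in replicate 1 of 2 µg/cm² Nuf2 was high at 2.64 (nearest 1.75) and Cdca8 at 8.78 (nearest 5.72). At 5 µg/cm² Cenpl was low in replicate 2 at 0.593 (nearest 0.762) and Pmf1 in replicate 4 at 4.21 (nearest 5.33). With Min-U-Sil 5, replicate 3 was high for Cenpi at 1.69 (nearest 1.57), Ska1 at 1.76 (nearest 1.46) and Oip5 at 0.849 (nearest 0.590), and replicate 2 for Cenpt at 1.60 (nearest 1.23).

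Among the controls, the water group of Min-U-Sil 5 had Cenpq high in replicate 4 at 0.770 (nearest 0.569) and Bub3 in replicate 1 at 15.2 (nearest 12.6). The other water group had Sgo2a high in replicate 2 at 0.131 (nearest 0.118) and Mis18a low in replicate 3 at 0.435 (nearest 0.524). In DMSO, Cenpi was low in replicate 4 at 0.265 (nearest 0.287) and Cdca8 in replicate 1 at 1.59 (nearest 1.88).

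Differences between treatment effects passed for 2 genes. Cenpw changed more with NM-203 at 5 µg/cm² than with TPA, by 0.69 ± 0.24 on the log2 scale (limma adjusted p = 0.0456). Of all gene names 7.73% passed in that direction, and the Cenpw call was lost in 11 of the fits with 1 array left out. Cenpa changed less with Min-U-Sil 5 than with TPA, the difference being -0.89 ± 0.25 (limma adjusted p = 0.0295). Of all gene names 2.56% passed in that direction, and 0 to 3 genes of the set did with 1 array left out.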

How the results depend on the processing

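The set's count of higher genes stayed within 1.5 times the reported one under every alternative run for NM-203 at 2 and 5 µg/cm² and Min-U-Sil 5 against their controls, and for TPA except within slide 1 (19 genes, median 1.53). Other counts moved. For DE, 3 became 5 with normexp and quantile normalization, 0 with arrays scaled on the median gene, 6 with genes well above background on every array, 13 with slide as a block, 14 with array weights, and 0 with only the arrays compared and within slides 1, 2 and 3. For 1 µg/cm² of NM-203, 0 became 2, 1, 8 and 18 with normexp, the stricter filter, slide as a block and array weights. For 2 against 1 µg/cm², 32 became 13 (median gene), 17 (scan day), 0 (only the arrays compared) and 0 (slide 5). For 5 against 2 µg/cm², 22 became 6 (slide), 7 (scan day), 6 (only the arrays compared) and 2 (slide 5). NM-203 against DE gave 22 within slide 1. Between the water groups, 8 higher and 0 lower became 1 and 1 (median gene), 0 higher (slide), 1 higher (scan day), 4 higher (only the arrays compared), and 17 higher and 2 lower (array weights). The effect of NM-203 exceeded that of TPA for 0 genes with the median gene, deposited table, no filter or scan day, 2 with the stricter filter, 3 with only the arrays compared and 6 with array weights; that of Min-U-Sil 5 fell short of that of TPA for 0 (median gene), 2 (stricter filter), 2 (scan day), 4 (only the arrays compared) and 6 (array weights). Array weights gave 2 genes for NM-203 over Min-U-Sil 5. Medians moved to 1.75 (NM-203, 5 µg/cm²) and 1.42 (Min-U-Sil 5) with normexp, and within slides to 2.23 (NM-203, 5 µg/cm², slide 1), 0.92 (1 µg/cm², slide 2), 1.01 (DE, slide 1) and 1.68 (Min-U-Sil 5, slide 4), and to 1.08 for 2 µg/cm² against the water group of Min-U-Sil 5. The cause was not tested.

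Leaving out 1 array gave 0 to 10 higher genes for DE, 0 to 4 for 1 µg/cm², 35 to 38 for 2 µg/cm², 41 to 41 for 5 µg/cm², 38 to 39 for Min-U-Sil 5, 37 to 40 for TPA, 25 to 35 for 2 against 1 µg/cm², 11 to 24 for 5 against 2 µg/cm² (11 without replicate 4 of 2 µg/cm², 13 without replicate 3 of 5 µg/cm²), 4 to 10 between the water groups, 0 to 1 for NM-203 over TPA and 0 to 3 for Min-U-Sil 5 under TPA, and a median of 1.41 to 1.63 for Min-U-Sil 5. Correlations of same-numbered arrays ran from -0.60 to 0.33. The record ties no array to an experiment, so these values cannot decide whether replicate numbers pair the samples. With replicate number as a block DE had 5 genes higher and no other count moved by over 1.5 times.

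Signs that turned were those of values that had not passed, and none passed after turning. For DE they were Cenpl (0.049 with normexp, 0.033 with array weights, 0.74 and 0.23 on slides 1 and 2), Zwint (0.0084 with normexp, 0.074 with the mean of probes, 0.0097 with slide, 0.061 and 0.0017 on slides 2 and 3), Mis12 (-0.023 with normexp, -0.00041 with slide, -0.21 on slide 1), Ska2 (0.045 with normexp, 0.026 with array weights, 0.14 on slide 2), Cenpf (-0.15 on slide 3) and Hjurp (-0.98 on slide 3). Leaving out 1 array gave -0.59 to 0.39 for Cenpl, -0.066 to 0.043 for Zwint, -0.013 to 0.096 for Mis12, -0.092 to 0.069 for Ska2 and -0.12 to 0.90 for Cenpf, where the upper end for Cenpl, Zwint and Cenpf is without DE replicate 3. At 1 µg/cm² they were Zwint (-0.012 with normexp, -0.015 to 0.060 with 1 array left out), Mis12 (0.014 with the mean of probes, 0.024 on slide 2) and Hjurp (-0.095 on slide 3), and at 2 µg/cm² Hjurp (-0.049 against the water group of Min-U-Sil 5). Hjurp and Ska3 were the 2 genes not well above background on every array.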
